A study of Homo sapiens with 16 samples.

Results

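The genes described here are 9 genes of the extracellular matrix, taken by name from the 59609 genes of both RNA tables. They were FN1 (fibronectin), SPOCK1 (testican-1), TGFBI, LUM (lumican), TNC (tenascin-C), THBS1 (thrombospondin-1), LAMA3 and LAMB3 (laminin chains) and SPARC (osteonectin). They were selected on their normalized read counts in both RNA comparisons, so their RNA values are given as a description, without tests. In the first comparison, cells overexpressing MT1G, a metallothionein that binds zinc and copper, were set against cells with an empty vector (3 libraries each). In the second, cells given the multikinase inhibitor sorafenib, a liver cancer drug, were set against cells given its solvent DMSO (3 libraries each). ATAC-seq, which maps open chromatin by transposase insertion, covered sorafenib (2 libraries) and DMSO (2 libraries). The label of every sample named Huh7, a line from a human liver carcinoma, and no dose, time or number of separate cultures was given, so the spread between libraries may be technical.

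The extracellular matrix is the protein scaffold that cells secrete and attach to. Fibronectin and the laminins carry binding sites for integrin receptors, and laminins build the basement membrane under epithelia. Matricellular proteins such as thrombospondin-1, tenascin-C and osteonectin mainly modulate how cells attach and how growth factors act, and small leucine-rich proteoglycans such as lumican organise collagen fibrils. In the liver, much of the interstitial matrix is made by stellate cells and fibroblasts, while fibronectin is also a plasma protein made by hepatocytes.

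The libraries held between 16549330 and 26781600 reads counted in genes. The label Huh7 was set against 19 hepatocyte and hepatoma markers: ALB and APOB had no read in any of the 12 RNA libraries, and only FOXA1 and HNF4A reached a mean of 1 RPM (reads of a gene scaled to a fixed total of 1000000 reads counted in genes) in each of the 4 groups. HNF4A, a liver transcription factor, fell with sorafenib to 117 ± 31.8 normalized read counts, against 340 ± 9.03 with DMSO (adjusted p = 1.28e-07, limma), and with MT1G to 215 ± 13.9, against 323 ± 20.5 with vector (adjusted p = 0.00126). Its part in the values below was not tested. The cells are called by their label alone. MT1G itself had 140, 130 and 179 normalized read counts in the MT1G libraries and none in the vector libraries. It had 189, 158 and 194 in the sorafenib libraries and none in the DMSO libraries. A normalized read count is the number of reads of a gene divided by the size factor of its library.

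Promoter sequences of 7 of the 9 genes were matched in the table used here, from RefSeq (GRCh38.p14), SPOCK1 and LUM not being among them, and the 250 bases before the start are shown for those whose RNA or open chromatin the results turn on. FN1 (chr2:215436069-215436318, minus strand) is shown for its large change with MT1G, THBS1 (chr15:39580829-39581078, plus strand) for its change with sorafenib, and both laminin genes for their chromatin. The LAMA3 sequence (chr18:23872770-23873019, plus strand) lies before an internal start of the gene, and the LAMB3 sequence (chr1:209651375-209651624, minus strand) before the most downstream of 3 listed starts. Capitals mark matches on either strand to the AP-1 motif TGANTCA, the GC box GGGCGG, the TEAD motif GGAATG and the TATA motif TATAAA.
FN1: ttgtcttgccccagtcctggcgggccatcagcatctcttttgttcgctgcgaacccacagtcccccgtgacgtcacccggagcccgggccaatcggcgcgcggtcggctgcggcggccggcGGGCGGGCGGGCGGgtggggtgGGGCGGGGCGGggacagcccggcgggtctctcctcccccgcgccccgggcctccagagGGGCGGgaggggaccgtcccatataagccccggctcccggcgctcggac
THBS1: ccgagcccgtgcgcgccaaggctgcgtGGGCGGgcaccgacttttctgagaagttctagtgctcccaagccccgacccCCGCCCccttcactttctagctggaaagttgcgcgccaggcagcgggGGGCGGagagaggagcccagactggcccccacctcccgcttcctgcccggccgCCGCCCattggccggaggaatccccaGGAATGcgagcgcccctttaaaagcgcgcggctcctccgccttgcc
LAMA3: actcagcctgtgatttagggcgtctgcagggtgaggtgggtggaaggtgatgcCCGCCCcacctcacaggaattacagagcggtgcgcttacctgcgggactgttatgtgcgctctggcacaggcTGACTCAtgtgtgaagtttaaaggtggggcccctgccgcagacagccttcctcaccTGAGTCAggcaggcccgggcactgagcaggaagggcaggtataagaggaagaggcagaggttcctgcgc
LAMB3: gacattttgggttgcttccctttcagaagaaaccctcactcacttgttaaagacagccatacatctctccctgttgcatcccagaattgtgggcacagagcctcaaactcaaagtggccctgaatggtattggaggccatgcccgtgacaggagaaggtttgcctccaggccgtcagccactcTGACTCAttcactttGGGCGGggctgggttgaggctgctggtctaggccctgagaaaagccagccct
FN1 held 6 GC boxes, some of which overlap, and THBS1 held 4 GC boxes and 1 TEAD match. LAMA3 held 2 AP-1 matches and the LAMB3 sequence shown held 1, and each also held 1 GC box. The other 2 listed LAMB3 starts had no AP-1 match. Shares were taken over all 27305 promoters of the table, 300 bases each at the first listed start of each gene. For LAMB3 that start is not the one shown. Of these promoters, 44.6% held a GC box, 14.0% a TEAD match, 12% a TATA match and 7.76% an AP-1 match. A looser NF-kB pattern (GGG, any 5 bases and CC) was in 58.0% of them and is left in lower case. A match is a run of letters and not a measured binding site.

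With MT1G overexpression, fibronectin and testican-1 RNA were many times higher than with the empty vector, TGFBI was more than doubled in level and lumican and LAMB3 were moderately higher, while thrombospondin-1 and LAMA3 were lower. All 9 genes had MT1G and vector libraries that did not overlap, 6 higher and 3 lower, where 39.4% of the 13914 genes tested did not overlap (18.9% higher and 20.5% lower). The contrast was used to choose the genes, so nothing is read from that count. In bulk RNA, more cells with a transcript and more transcript per cell cannot be told apart.

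FN1, which links integrins to collagen and fibrin, had 4873, 4364 and 4057 normalized read counts in the MT1G libraries, against 537, 576 and 545 in the vector libraries. The lowest MT1G library lay far above the highest vector library. The means were 4431 ± 412 and 553 ± 20.8 (SD, n = 3 each), 8.02-fold higher with MT1G, or a log2 change of 3.00 on the scale of the normalized read count plus 1. FN1 overlaps ATIC, an enzyme gene of purine synthesis, on chromosome 2. ATIC is named for that overlap, outside the naming rule. Whether the reads were counted by strand is not given in the sources used here. ATIC averaged 3821 ± 447 in MT1G libraries and 4134 ± 238 in vector libraries (log2 change of -0.12, adjusted p = 0.351, limma with Benjamini-Hochberg adjustment).

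SPOCK1 encodes a secreted proteoglycan with a SPARC-type calcium-binding domain. It had 1730, 1746 and 1577 normalized read counts in the MT1G libraries, against 116, 117 and 109 in the vector libraries. Its libraries within each group differed little beside the gap between the groups. The MT1G mean of 1684 ± 93.1 was 14.8-fold the vector mean of 114 ± 4.79 (SD, n = 3 each), a log2 change of 3.87. Among the 10267 genes with a mean of at least 100, SPOCK1 had the change ranked 9 from the highest, and FN1 the change ranked 13. The related genes SPOCK2 and SPOCK3, named outside the naming rule after their values were seen, did not show this: SPOCK2 had 175 ± 38.8 with MT1G and 148 ± 4.50 with vector (log2 change of 0.22, adjusted p = 0.314, limma), and SPOCK3 averaged under 10.

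TGFBI, an adhesion protein induced by TGF-beta, had 4518, 3966 and 3558 normalized read counts in the MT1G libraries, against 1636, 1697 and 1724 in the vector libraries. The MT1G libraries spread more widely, and every one of them lay above every vector library. The means were 4014 ± 482 and 1686 ± 45.3, a 2.38-fold difference and a log2 change of 1.24. LUM had 1975, 2517 and 1758 normalized read counts with MT1G, against 1503, 1539 and 1464 with vector. This was a smaller difference, 1.39-fold with a log2 change of 0.46, and 1 MT1G library stood above the other two. LAMB3, a beta chain that joins the LAMA3 product in laminin-332 of the epithelial basement membrane, had 6241, 5248 and 6453 with MT1G, against 4605, 4276 and 4709 with vector. Its log2 change was 0.40.

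THBS1, which activates latent TGF-beta and inhibits angiogenesis, had 612, 552 and 564 normalized read counts in the MT1G libraries, against 748, 787 and 677 in the vector libraries. Every MT1G library was lower, with a log2 change of -0.35. LAMA3, the alpha chain of laminin-332, had 600, 587 and 601 with MT1G, against 692, 736 and 667 with vector. Its groups were separate by a narrow margin, with a log2 change of -0.23.

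TNC and SPARC were close to undetected. TNC had 8, 5 and 10 reads in the MT1G libraries, against 2, 1 and 0 in the vector libraries, a ratio of 6.85 with a 95% counting interval of 2.07 to 35.6. SPARC had 0, 0 and 2 reads in the MT1G libraries, against 4, 5 and 2 in the vector libraries, a ratio of 0.162 with an interval of 0.0175 to 0.744. These intervals cover counting error only, on the pooled reads of the 3 libraries of each group. The contrast was used to choose the genes, so nothing is read from the intervals. Both genes averaged under 10 normalized read counts in each table and were not among the genes tested, which left 7 of the 9.

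**Figure D1:**
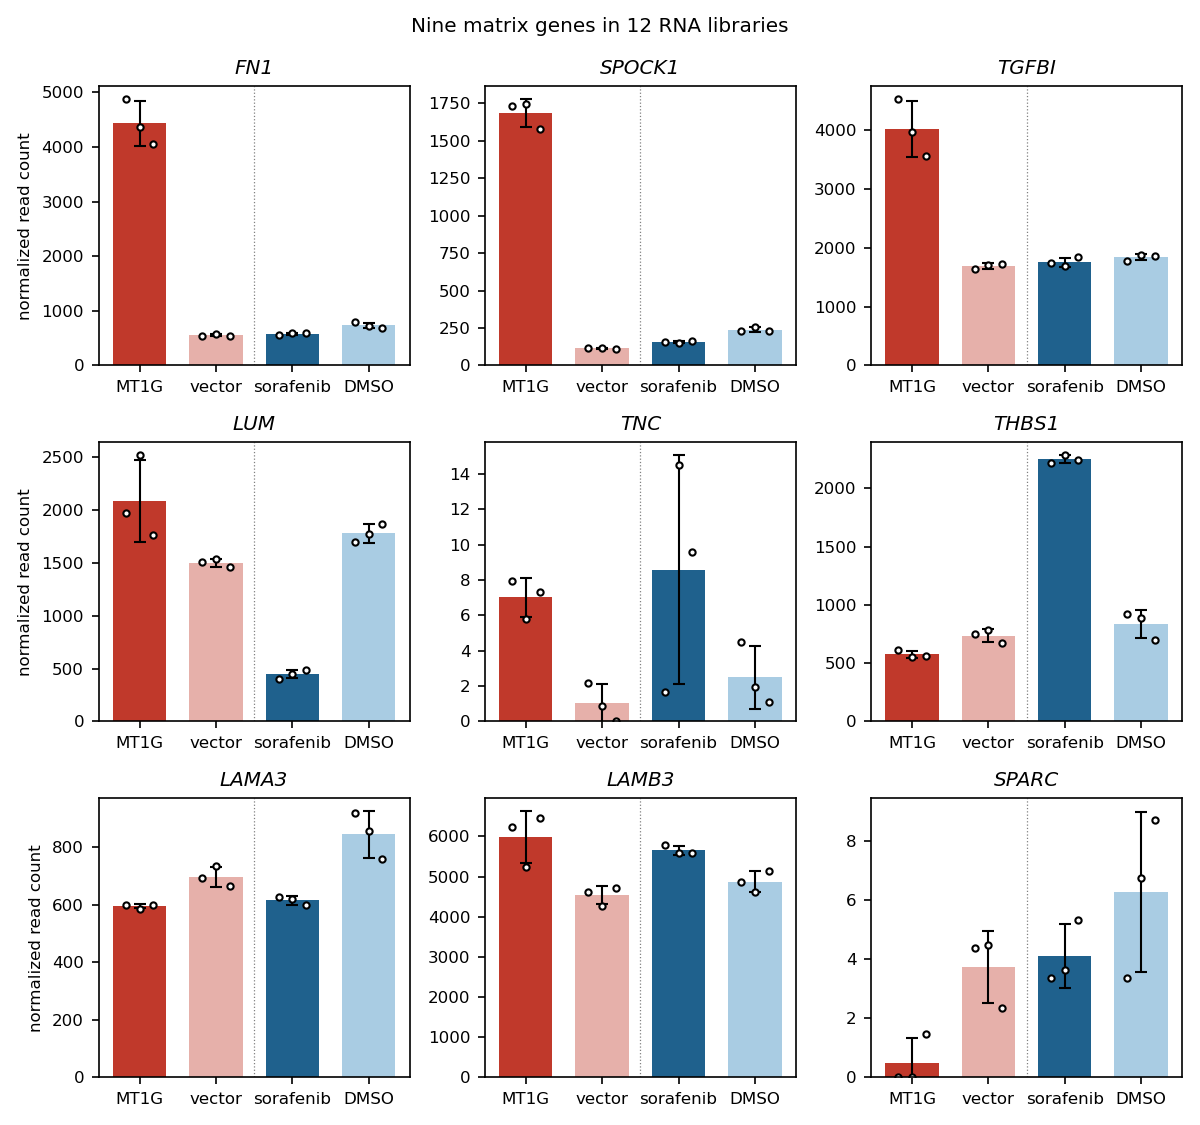
Normalized read counts of the 9 genes in each group, with bars for the mean, error bars for the SD and points for the 3 libraries; each panel has its own vertical axis from 0, and the dotted line parts the separately normalized tables. FN1 and SPOCK1 stand out in the MT1G group, THBS1 and LUM in the sorafenib group, and TNC and SPARC stay below 15.

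With sorafenib, the ranking of the genes was another one. Lumican RNA was at 25.1% of its DMSO level, thrombospondin-1 RNA was well over double, and fibronectin, testican-1 and LAMA3 were moderately lower. In normalized read counts, sorafenib and DMSO libraries did not overlap for 6 of the 9 genes, 2 higher and 4 lower. Of the 14915 genes tested, 73% did not overlap (35.8% higher and 37.2% lower). This contrast too was used to choose the genes.

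LUM had 405, 453 and 483 normalized read counts in the sorafenib libraries, against 1696, 1771 and 1872 in the DMSO libraries. No sorafenib library came near a DMSO library. The sorafenib mean of 447 ± 39.1 was 25.1% of the DMSO mean of 1780 ± 88.1 (SD, n = 3 each), a log2 change of -1.99, ranked 47 from the lowest among the 10658 genes with a mean of at least 100. Decorin (DCN), a related small leucine-rich proteoglycan whose sorafenib values are given outside the naming rule, fell with sorafenib to 60.0 ± 8.15, against 130 ± 22.3 with DMSO (log2 change of -1.10, adjusted p = 2.67e-05, limma), and rose with MT1G to 437 ± 77.4, against 220 ± 26.2 with vector (log2 change of 0.98, adjusted p = 4.07e-05).

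THBS1 had 2218, 2283 and 2246 normalized read counts in the sorafenib libraries, against 922, 891 and 698 in the DMSO libraries. The sorafenib libraries were tightly grouped and the DMSO libraries were not. The means of 2249 ± 32.7 and 837 ± 121 differed 2.69-fold, a log2 change of 1.44. FSIP1, which overlaps THBS1 on chromosome 15 and is likewise named outside the rule, was also higher, at 18.9 ± 3.29 with sorafenib and 9.52 ± 2.91 with DMSO (log2 change of 0.94, adjusted p = 0.0274, limma). THBS3, a relative named outside the naming rule, had 90.5 ± 10.4 with sorafenib and 95.7 ± 11.1 with DMSO (adjusted p = 0.653, limma).

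FN1 had 550, 586 and 592 normalized read counts with sorafenib, against 787, 724 and 689 with DMSO, a log2 change of -0.35. The groups were separate on this scale, though not in RPM as given below, and the change was small beside that with MT1G. The overlapping gene ATIC fell by a like amount, with 2694 ± 147 in sorafenib libraries and 3362 ± 174 in DMSO libraries (log2 change of -0.32, adjusted p = 0.000244, limma). Its part in the FN1 values was not tested. SPOCK1 had 160, 151 and 162 with sorafenib, against 233, 255 and 230 with DMSO, or 65.8% of the DMSO mean and a log2 change of -0.60. The log2 changes of SPOCK1 in both comparisons thus had opposite signs. SPOCK2, named outside the naming rule, also fell with sorafenib, to 125 ± 8.92, against 179 ± 4.41 with DMSO (log2 change of -0.52, adjusted p = 0.000937, limma).

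LAMA3 had 629, 622 and 598 normalized read counts with sorafenib, against 919, 857 and 760 with DMSO. All sorafenib libraries were lower, at 72.9% of the DMSO mean and a log2 change of -0.45. LAMB3 had 5791, 5578 and 5583 with sorafenib, against 4869, 4610 and 5145 with DMSO. It was slightly higher with sorafenib, by a log2 change of 0.21.

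TGFBI had 1742, 1682 and 1837 normalized read counts with sorafenib, against 1778, 1878 and 1851 with DMSO. These groups overlapped, with a log2 change of -0.07. TNC had 2, 16 and 9 reads with sorafenib, against 4, 2 and 1 with DMSO, and SPARC had 4, 4 and 5 with sorafenib, against 3, 7 and 8 with DMSO. Both pairs of groups overlapped.

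**Figure D2:**
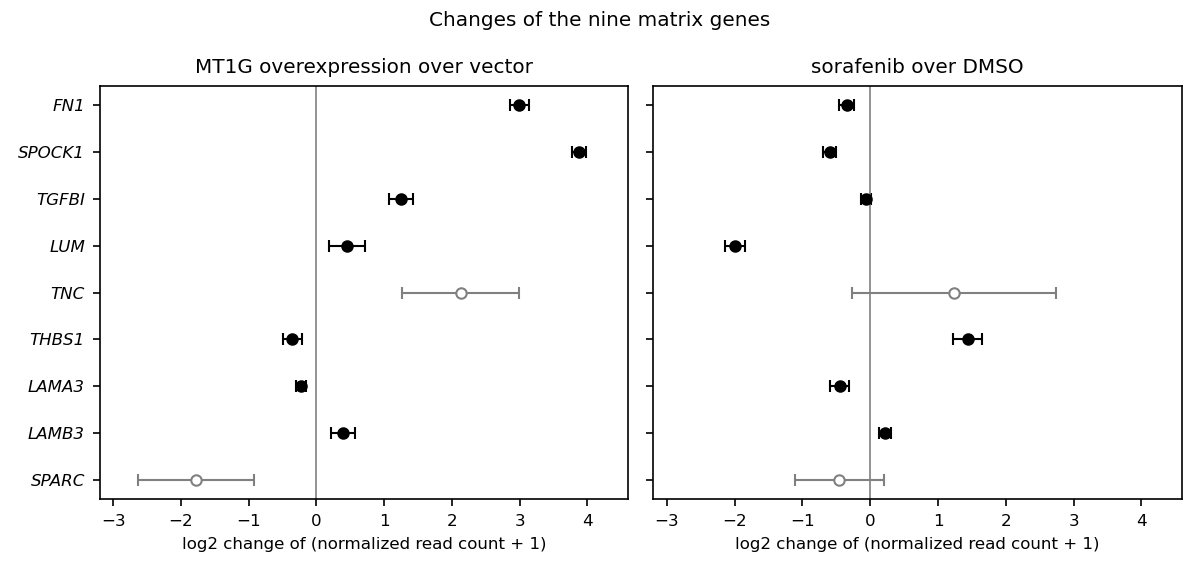
Log2 change of each gene with MT1G over vector and with sorafenib over DMSO, on the scale of the normalized read count plus 1; bars are the combined SD of both groups' log2 values (n = 3 each), and open grey points are genes with a mean under 10. FN1 and SPOCK1 lie at 3.00 and 3.87 with MT1G and at -0.35 and -0.60 with sorafenib, and LUM and THBS1 lie on opposite sides of 0 in both panels.

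The tables were normalized separately, so the order of the 4 conditions was read from RPM. FN1 was at 223 ± 15.7 RPM with MT1G, 35.4 ± 3.04 with DMSO, 32.5 ± 1.38 with sorafenib and 26.6 ± 0.946 with vector, and the DMSO and sorafenib ranges overlapped. SPOCK1 was at 84.7 ± 4.32 with MT1G, 11.6 ± 0.908 with DMSO, 8.90 ± 0.325 with sorafenib and 5.48 ± 0.301 with vector, with no overlap between neighbours. For SPOCK1 the DMSO and vector groups both lay far below the MT1G group. These 2 control groups had separate ranges, with DMSO higher, for FN1, SPOCK1, TGFBI, LUM, LAMA3 and LAMB3. Their ranges overlapped for THBS1, TNC and SPARC. The margin was narrow for LAMA3 (lowest DMSO library 35.6 RPM, highest vector library 35.2) and for LAMB3 (226.9 and 225.3). The share of all genes with separate control ranges was not computed, so nothing about the 9 genes is read from this. The cause of the difference between the controls was not tested. TGFBI was at 202 ± 19.8 with MT1G, 98.9 ± 4.57 with sorafenib, 88.6 ± 3.29 with DMSO and 81.0 ± 0.821 with vector. Sorafenib stood above DMSO on this scale and not on the size factor scale, so the sign for TGFBI depends on the scaling. The FN1 sorafenib and DMSO groups were separate on the size factor scale and overlapped in RPM, so their separation depends on it too. For the other genes with a mean of at least 10, falls with sorafenib were smaller in RPM and rises were larger. LUM was at 105 ± 20.7 with MT1G, 85.9 ± 2.80 with DMSO, 72.2 ± 2.51 with vector and 25.2 ± 2.29 with sorafenib. THBS1 was at 127 ± 2.15 with sorafenib, and its DMSO level of 40.5 ± 6.74 overlapped that of vector at 35.4 ± 3.01, above 29.0 ± 0.902 with MT1G. LAMA3 ran from 40.9 ± 4.72 with DMSO to 30.0 ± 0.635 with MT1G, and LAMB3 from 319 ± 5.78 with sorafenib to 218 ± 11.2 with vector.

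The genes whose pattern over the 12 libraries was most like FN1, by the root mean square distance of centred log2 values among 10137 genes, were HERC5 at 0.18, DDX58 at 0.28 and MAL2 at 0.30. For SPOCK1 they were ISG15 at 0.22, HERC5 at 0.26 and DDX58 at 0.31. The values were centred and not scaled, so these distances rest mostly on the MT1G change. FN1 and SPOCK1 were chosen on that contrast, so nothing is read from the likeness. HERC5 encodes a ubiquitin ligase family member, DDX58 the RNA sensor RIG-I, ISG15 a ubiquitin-like protein and MAL2 a membrane traffic protein. HERC5 had 3707 ± 449 with MT1G and 396 ± 26.0 with vector, and ISG15 had 12935 ± 688 with MT1G and 742 ± 39.6 with vector. Those levels were set beside sorafenib values of 409 ± 48.7 for HERC5 and 887 ± 49.6 for ISG15, against DMSO values of 640 ± 34.2 and 1005 ± 136.

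Lumican and osteonectin also mark stellate cells and fibroblasts. The summed level of 10 other markers of those cells was 46.4 to 51.6 RPM in MT1G libraries and 33.3 to 34.1 in vector libraries. It was 40.7 to 42.2 in sorafenib libraries and 32.3 to 34.7 in DMSO libraries. Its members did not move together with sorafenib: RGS5 was at 6.51 ± 0.336 RPM with sorafenib and 1.24 ± 0.406 with DMSO, and COL3A1 at 5.47 ± 0.643 with sorafenib and 2.57 ± 0.568 with DMSO, whereas DCN was at 3.39 ± 0.470 with sorafenib and 6.27 ± 0.985 with DMSO. With MT1G the members did not move together either. Of the 5 tested, only DCN was called higher (limma, adjusted p of at most 0.05), with the values given above, and none was called lower. RGS5 was at 1.29 ± 0.116 RPM with MT1G and 1.23 ± 0.327 with vector. PDGFRB was at 0.551 ± 0.239 with MT1G and 0.966 ± 0.097 with vector, and COL1A1 at 22.8 ± 1.66 and 18.6 ± 0.372. COL1A1 was the highest of the 10 markers in all 4 groups. Its level was 24.8 ± 1.69 RPM with sorafenib and 22.4 ± 1.01 with DMSO, but 440 ± 31.4 and 464 ± 31.8 normalized read counts in the same groups, so its direction depends on the scaling. The sum of the markers was taken in RPM alone, so the size of its difference with sorafenib depends on the scaling too. COL1A2 had no read in the DMSO and vector libraries. The part of such cells in the values of the 9 genes was not tested.

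The other matrix genes were read from 9 lists of 163 genes by role, which leave out the 9 genes. With sorafenib, 19 of the 104 tested rose and 70 fell (34.4% and 35.8% of all genes tested, 70.3% in either direction), with a median log2 change of -0.53 beside -0.02 for all genes. With MT1G, 22 of the 101 tested rose and 11 fell (11.5% and 11.3% of all genes tested, 22.8% in either direction), with a median of 0.07 beside 0.00. The genes named below are the largest rises and falls of each list among called genes with a mean of at least 100. Their adjusted p values reached at most 0.00235 for sorafenib and 0.0266 for MT1G (limma, Benjamini-Hochberg). In each the 3 treated libraries did not overlap the 3 control libraries. Of all genes tested, 73% with sorafenib and 39.4% with MT1G had groups that did not overlap. The named genes were picked for large changes, so nothing is read from their separation.

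Of the laminins, 7 of 9 tested fell and 2 rose with sorafenib, and 2 of 8 rose and 1 fell with MT1G. Of the other basement membrane genes, 8 of 11 fell and 1 rose with sorafenib, and 3 of 10 rose with MT1G. LAMC1, the gamma chain of most laminins, fell with sorafenib to 3002 ± 35.4, against 7163 ± 433 with DMSO (log2 change of -1.25). LAMA4 fell too (log2 change of -0.95). COL4A1 and COL4A6, chains of the type IV collagen network of the basement membrane, fell with sorafenib and rose with MT1G. COL4A1 had 1055 ± 65.5 with sorafenib and 2723 ± 30.4 with DMSO (log2 change of -1.37), and 3375 ± 363 with MT1G and 2279 ± 129 with vector (log2 change of 0.56). COL4A6 had log2 changes of -1.65 with sorafenib and 0.42 with MT1G. With MT1G, LAMA1 rose by 0.44 and LAMB1 by 0.24 on the log2 scale, and LAMC3 fell to 2116 ± 191, against 3538 ± 115 with vector (log2 change of -0.75).

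Of the collagens outside the basement membrane, 8 of 12 tested fell and 2 rose with sorafenib, and 3 of 12 fell and 1 rose with MT1G. COL5A1, which sets the width of collagen fibrils, had 5285 ± 200 with sorafenib and 14579 ± 404 with DMSO (log2 change of -1.46). COL5A2 fell in both comparisons, with log2 changes of -1.14 with sorafenib and -0.59 with MT1G. COL9A3 fell with MT1G (log2 change of -0.89).

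The matricellular list, the relatives of THBS1, TNC and SPARC, held large changes in both directions. CCN2, also named connective tissue growth factor, rose with sorafenib to 1151 ± 39.8, against 279 ± 23.1 with DMSO (log2 change of 2.04). CCN1 rose with sorafenib to 8271 ± 34.8, against 2827 ± 119 with DMSO (log2 change of 1.55), and with MT1G by 0.34 on the log2 scale. SMOC1, which carries a SPARC-type calcium-binding domain, fell with sorafenib to 678 ± 53.0, against 4396 ± 182 with DMSO (log2 change of -2.70). CCN3 rose with MT1G to 698 ± 84.7, against 303 ± 29.5 with vector (log2 change of 1.20). CCN5 fell in both, with log2 changes of -1.29 with sorafenib and -0.79 with MT1G. In all, 2 of 10 tested rose and 4 fell with sorafenib, and 2 of 10 rose and 1 fell with MT1G.

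Elastic fibre and other glycoprotein genes fell in 11 of 15 tested cases with sorafenib and rose in 2, and with MT1G 2 of 16 rose and 3 fell. FBN1, the microfibril protein fibrillin-1, had 944 ± 69.0 with sorafenib and 2750 ± 320 with DMSO (log2 change of -1.54), and 3301 ± 21.5 with MT1G and 2120 ± 104 with vector (log2 change of 0.64). LTBP1, which holds latent TGF-beta in the matrix, fell in both, with log2 changes of -1.64 with sorafenib and -0.74 with MT1G. TINAGL1 rose in both, with log2 changes of 0.60 with sorafenib and 0.95 with MT1G, and FBLN1 fell with MT1G to 9494 ± 952, against 14186 ± 572 with vector. Of the 4 tested proteoglycans 2 rose and 2 fell with sorafenib, and of 3 tested with MT1G 2 rose. SRGN (serglycin) had 1063 ± 47.1 with sorafenib and 3293 ± 124 with DMSO (log2 change of -1.63), and 4356 ± 295 with MT1G and 3033 ± 94.8 with vector (log2 change of 0.52).

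Matrix enzymes fell in 18 of 23 tested cases with sorafenib and rose in 2, and with MT1G 5 of 22 rose and 2 fell. PLOD2, a collagen lysyl hydroxylase, had 360 ± 70.6 with sorafenib and 1176 ± 176 with DMSO (log2 change of -1.71), and 1177 ± 188 with MT1G and 723 ± 44.0 with vector (log2 change of 0.69). P3H4 fell with sorafenib (log2 change of -1.13), whereas LOXL3 rose by 1.31 and P3H2 by 0.23. With MT1G, the crosslinking enzyme TGM2 rose by 0.46 and PCOLCE, an enhancer of procollagen cleavage, fell (log2 change of -0.54).

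Of the 9 tested TGF-beta ligands and receptors, whose pathway is a known inducer of TGFBI and FN1, 2 rose and 6 fell with sorafenib, and 2 rose with MT1G. TGFB2 rose in both, to 476 ± 23.0 with sorafenib, against 285 ± 24.6 with DMSO, and to 391 ± 63.6 with MT1G, against 268 ± 22.8 with vector. TGFBR1 rose with MT1G by 0.66 on the log2 scale, and ACVR2A rose with sorafenib by a like 0.66. TGFBR3 and ACVR2B fell with sorafenib, with log2 changes of -1.83 and -1.25. The ligand TGFB1, named outside the naming rule, fell with sorafenib to 3295 ± 190, against 5484 ± 329 with DMSO (adjusted p = 3.28e-08, limma), and had 5566 ± 500 with MT1G and 5474 ± 188 with vector (adjusted p = 0.882). Of 11 matrix receptors other than integrins, 4 rose and 6 fell with sorafenib, and 3 rose and 1 fell with MT1G. SDC4 (syndecan-4, a fibronectin co-receptor) rose in both, with log2 changes of 1.23 with sorafenib and 1.03 with MT1G. SDC3 and SDC1 fell with sorafenib (log2 changes of -1.89 and -1.33), and with MT1G the hyaluronan receptor CD44 rose by 0.32 and GPC1 fell (log2 change of -0.44).

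**Figure D3:**
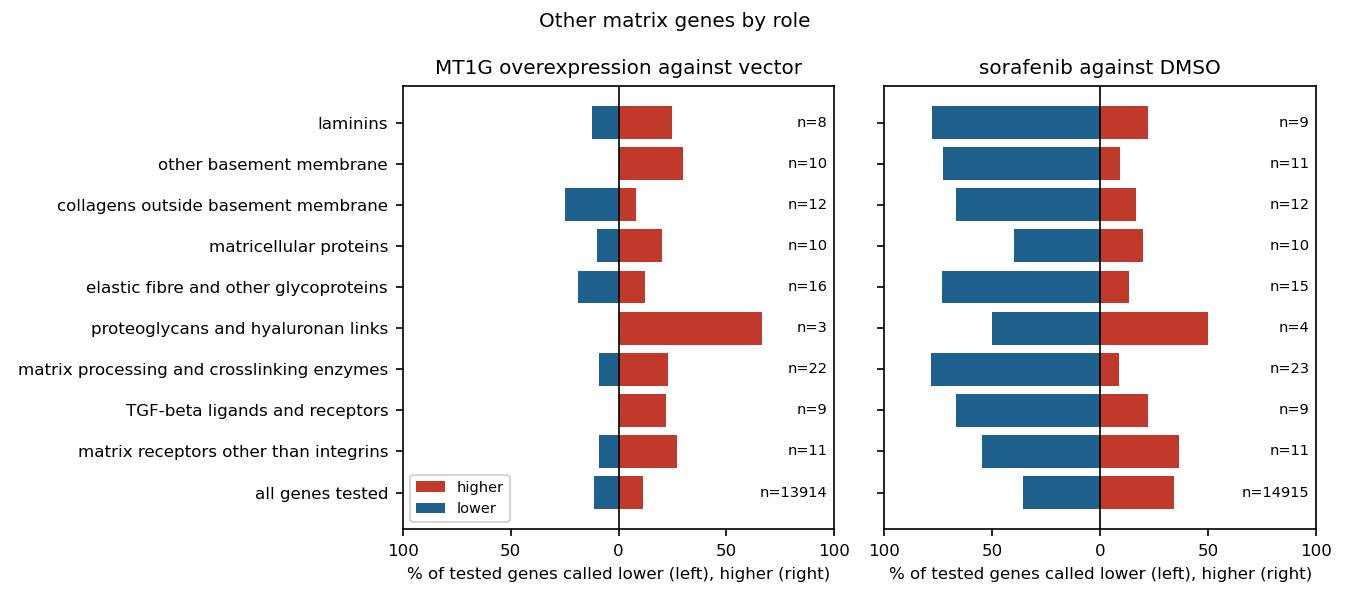
Percent of the tested genes of each role list called higher (red, right) or lower (blue, left) at an adjusted p of at most 0.05, with the number tested and all genes tested as the lowest bar. With sorafenib the blue bars exceed the red ones in 8 of the 9 lists, and with MT1G most genes of 8 of the 9 lists are in neither bar.

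ATAC-seq had not been used to choose the genes. Peaks called per library by the authors were merged into regions, and a region was called gained with a peak in both sorafenib libraries and in no DMSO library, and lost in the reverse case. Within 2 kb of the 9 genes lay 100 regions. Of these 3 were gained (6.4% of all 220925 regions were) and 8 were lost (12% of all were), while 51 had a peak in all 4 libraries (34.2% of all did). The gained count became 9 without sorafenib library 3 and 14 without sorafenib library 4, and the lost count became 19 without DMSO library 1, so nothing is read from these shares. An exact permutation test of 2 against 2 libraries cannot pass 0.05, and no test was run. The depth of these libraries is unknown. The median enrichment of a peak over local background was 6.61 and 6.95 in the DMSO libraries, against 5.51 and 5.56 with sorafenib. The median peak length was 449 and 384 bases with DMSO, against 285 and 280 with sorafenib. The part of this difference in the gained and lost regions was not tested.

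The LAMA3 promoter shown above held a region called lost. A region at chr18:23872665-23872981 that covers both AP-1 matches had no peak in either sorafenib library, against peaks with an enrichment over local background of 6.07 and 6.05 in the DMSO libraries. Enrichments are the authors' own values for each peak. These DMSO peaks were at or above 46.3% and 43.8% of the peaks of their libraries, so both lay below the median. Library 4 of the sorafenib group had a peak further upstream, at chr18:23871400-23871567, with an enrichment of 4.49. Each of the 27305 promoters, at the first listed start of its gene, was given 1 class. For 0.890% it was lost, with no gained region and none in all 4 libraries. For 0.685% it was gained, with no region in all 4 libraries, and 48.5% had no region. A second region over the upstream start of LAMA3, at chr18:23689011-23690737, was open in all 4 libraries. Its peaks went the other way, with enrichments of 10.4 and 9.83 in the sorafenib libraries, against 5.17 and 6.36 in the DMSO libraries. In all, 11 of the 21 LAMA3 regions were open in all 4 libraries. LAMA3 RNA was lower with sorafenib, as given above, and whether this was RNA from the internal start was not tested.

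The promoters of FN1, TGFBI, THBS1 and LAMB3 had a peak in all 4 libraries, as 45.5% of all promoters did. For THBS1, whose RNA was 2.69-fold higher with sorafenib, 3 of 4 regions were open in all 4 libraries and none was gained. LUM had 2 regions, both open in all 4 libraries, beside RNA at 25.1% of the DMSO level. At FN1, 2 of 10 regions were lost and 1 was gained, all within the gene. The lost region at chr2:215396548-215397363 had enrichments of 8.55 and 12.3 in the DMSO libraries, and the gained one at chr2:215409281-215409494 had 4.68 and 5.22 in the sorafenib libraries. SPOCK1, the longest of the 9 genes, had 38 regions, of which 4 were lost, none was gained and 19 were open in all 4 libraries. Around TNC 1 of 6 regions was gained, and around SPARC 1 of 7 was lost. The promoter windows of TNC and SPARC held no peak in any library, although a region just upstream of TNC at chr9:115118489-115119377 was open in all 4.

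**Figure D4:**
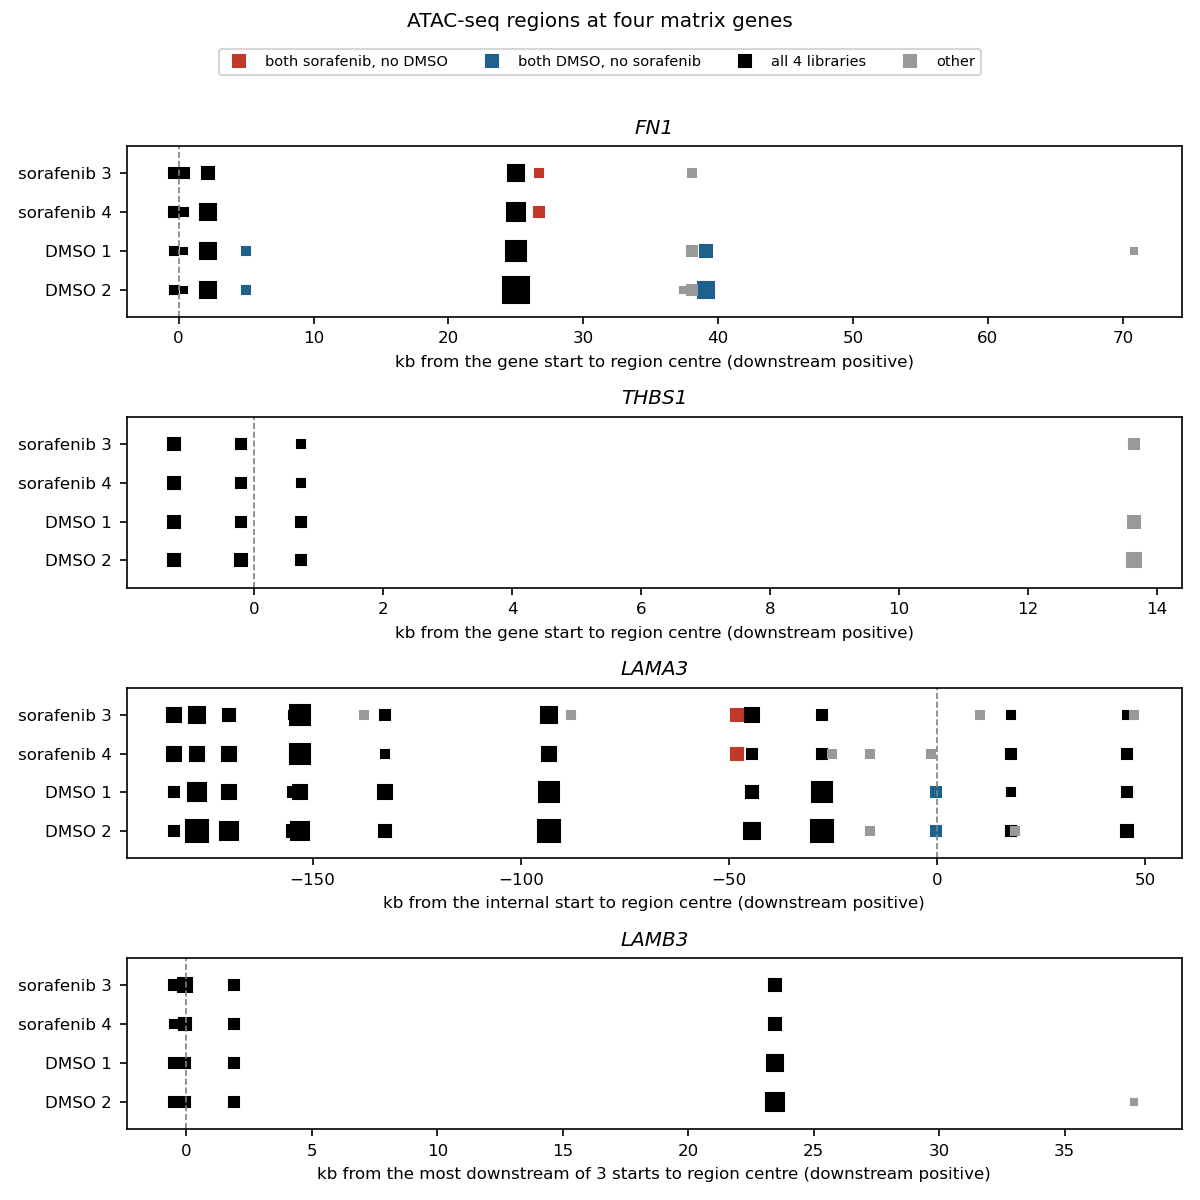
ATAC-seq peaks at FN1, THBS1, LAMA3 and LAMB3 in each library, by the distance of the merged region's centre from the start in kb; square size grows with the peak's own enrichment, and colours give the class of the region. At LAMA3 the region at the internal start (0 kb) is present in both DMSO libraries alone, while the THBS1 and LAMB3 starts are open in all 4 libraries.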

How the data were processed

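The 9 genes and the lists of matrix genes by role were chosen with earlier results of these data known. Per the submitters' processing notes, the tools were MACS2 2.2.7.1, Bowtie2 2.4.1, SAMtools, Picard, DESeq2, featureCounts 1.6.1, HISAT2 1.1.0 and cutadapt, on hg38, with no role given. The RNA signal values deposited by the authors are read counts divided by a size factor, and whole reads were recovered for 100% of values within 0.001. The deposited tables also hold the authors' log2 fold changes, test scores and p-values. The deposited peak lists hold a score, the fold enrichment (a ratio), and the -log10 p and q of each peak per library.

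Genes with a mean of at least 10 were tested with limma 3.58.1 (R 4.3.3) on log2(normalized read count + 1), with trend and robust variance, two-sided, Benjamini-Hochberg threshold 0.05. Table columns were mapped to groups by name, not to single samples. Gene spans, promoters and positions came from RefSeq GRCh38.p14, and regions were merged at 1 bp. Named genes were the 9, and the 2 largest called rises and falls of each list with a mean of at least 100. The 3 genes nearest to FN1 and to SPOCK1 were named too. MT1G, PLAUR, ADGRG6 and genes named only as cell type markers are outside this rule, as are others where said. Alternatives were edgeR 4.0.16, DESeq2 1.42.0, TMM, other pseudocounts and filters, a replicate block and leaving out each library.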

Additional observations from a re-analysis of the deposited data

How the results depend on the processing

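Of 290 alternative values, 162 were log2 changes of the 9 genes, and the others were counts, which have no sign to reverse. Among those log2 changes, none reversed its sign where the groups did not overlap, and 159 stayed within the spread. The genes were chosen on these contrasts, so nothing is read from this. In all, 269 of the 290 stayed within the spread or, for counts, within 1.5 times. A minimum absolute log2 change of 1 left 2175 genes higher and 1024 lower with sorafenib (5137 and 5347 without it), 289 and 69 with MT1G (1604 and 1575 without it), 11 and 24 matrix list genes with sorafenib, and 3 and 0 with MT1G (by limma; 16 were lower at an unadjusted p under 0.05, and edgeR and DESeq2, with no minimum, called 10 each). Leaving out 1 library gave 4607 to 5281 higher and 4973 to 5393 lower genes with sorafenib, and 1007 to 1818 higher and 764 to 2013 lower with MT1G; without vector library 2 these were 1062 and 824, and without vector library 3 they were 1007 and 764; the cause was not tested. Regions at the 9 genes numbered 5 gained and 13 lost in a window of 10 kb, and 5 were gained when merged peaks had to share 0.5 of the shorter one. Leaving out 1 ATAC-seq library asks for fewer peaks, and gave 3 to 14 gained (9 without sorafenib library 3, 14 without sorafenib library 4) and 9 to 19 lost (19 without DMSO library 1). The log2 change of TNC with MT1G was 1.01 with a pseudocount of 5 (2.13 with 1), and that of SPARC -2.38 with 0.5 and -0.67 with 5 (-1.77 with 1). Columns of the same number did not deviate together (correlations -0.06 to 0.03 with sorafenib and -0.14 to 0.04 with MT1G), and a replicate block gave 4992 higher and 5201 lower genes with sorafenib, 1691 and 1566 with MT1G. The depth limits TNC and SPARC, with at most 16 reads in a library.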

Other observations

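The patterns nearest to the remaining well-covered genes were taken by the same distance over the 12 RNA libraries, chosen after the values were seen. For TGFBI they were PLAUR, the urokinase receptor, at 0.06, and the matricellular gene CCN3 at 0.07. PLAUR had 2519 ± 301 normalized read counts with MT1G and 1060 ± 37.3 with vector, and 1201 ± 18.5 with sorafenib and 1300 ± 61.7 with DMSO. For LUM the nearest was ADGRG6, an adhesion receptor, at 0.15, with 334 ± 21.7 with sorafenib and 1378 ± 155 with DMSO. These distances too rest on the contrasts used to choose the genes, so nothing is read from them.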
